A study of Rattus norvegicus with 9 samples.

Results

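Expression of 10 genes for neutrophil granule proteins and S100 alarmins was examined in rat blood, out of 18166 genes with a value on the array. The genes were taken by symbol from the annotation of the array, and each was measured by 1 transcript cluster. They comprised the alarmins S100a8 and S100a9, the myeloperoxidase gene Mpo, the neutrophil elastase gene Elane, the specific granule genes Camp, Lcn2, Ltf and Ngp, the collagenase gene Mmp8 and the gelatinase gene Mmp9.

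The blood came from male Sprague-Dawley rats of 250 to 280 g, whose age is not given in the sources used here, with 3 rats and 3 arrays in each of 3 groups. Control rats had the operation without the occluding filament. Rats of the QDBS group (Qi deficiency and blood stasis) swam to exhaustion daily for 21 days. Rats of the YDBS group (Yin deficiency and blood stasis) were given hydrocortisone at 45 mg/kg daily for 13 days. They were given epinephrine at 0.36 mg/kg on 1 further day. Every QDBS and YDBS rat was then subjected to middle cerebral artery occlusion, which blocks blood flow to part of the brain, and blood was taken at 24 h of reperfusion. Neither pretreatment was given to a group without occlusion, so pretreatment and occlusion cannot be told apart in the comparisons with control, and each model was set against the same 3 control arrays. QDBS against YDBS compared the pretreatments with occlusion in both.

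Neutrophils make the contents of their granules in the bone marrow in a fixed order. Myeloperoxidase and elastase are made first and stored in azurophil granules, the specific granule proteins follow in myelocytes, and gelatinase is made last, so mature neutrophils in blood carry the proteins but usually little of the early mRNA. S100a8 and S100a9 form calprotectin, an abundant cytosolic complex that acts as a danger signal on Toll-like receptor 4 and RAGE once it is released, and their mRNA persists in circulating neutrophils and monocytes.

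The values are log2 signals computed by the authors. FC is the fold change, written as a negative value for a fall. A gene was called when the FDR of limma over all 18166 genes was under 0.05 and the absolute log2 FC was over 1. Array medians ran from 4.15 to 4.21 for the controls and from 3.94 to 4.05 for the models. Over all genes the log2 FC had a median of -0.15 for QDBS, -0.16 for YDBS and 0.02 for one model against the other. In whole blood, fewer cells of a type and less RNA per cell cannot be told apart.

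The S100 alarmins had higher signals in YDBS than in both other groups, although limma called neither between the models. The log2 signal of S100a8, the small calcium-binding subunit of calprotectin, was 7.98, 7.66 and 7.99 in the control rats, 8.42, 7.76 and 9.04 in the QDBS rats and 9.42, 9.98 and 10.4 in the YDBS rats. All 3 YDBS values lay above every control and QDBS value, while QDBS overlapped control, with QDBS replicate 3 the highest of its group. S100a9, the other calprotectin subunit, was at 10, 9.58 and 9.96 in control, 10.25, 9.74 and 10.75 in QDBS and 10.96, 11.43 and 11.5 in YDBS on the same log2 scale. Its arrays were ordered in the same way, YDBS above both other groups and QDBS overlapping control. S100a8 and S100a9 are neighbours on chromosome 2, with 0 genes annotated between them.

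Mmp8, the neutrophil collagenase, had log2 signals of 7.99, 7.6 and 7.98 in control, 8.25, 8.46 and 9.43 in QDBS and 9.34, 10.21 and 10.7 in YDBS. Every value of both model groups was above control, and the model groups overlapped because QDBS replicate 3 exceeded YDBS replicate 1. Mmp9, the gelatinase that marks the last granules to form, behaved otherwise, at 8.53, 8.83 and 8.38 in control, 6.7, 7.72 and 7.79 in QDBS and 7.49, 8.63 and 9.24 in YDBS. All QDBS values of Mmp9 lay below control, and the YDBS rats spanned the control values.

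Camp, Lcn2 and Ngp, specific granule genes like Mmp8 and Ltf, had lower signals in both models than in control. Camp, the cathelicidin precursor of an antimicrobial peptide, was at log2 signals of 7.3, 6.54 and 6.95 in control, 5.23, 6.04 and 6.17 in QDBS and 5.72, 6.43 and 6.29 in YDBS. Lcn2, a lipocalin that withholds iron from bacteria by binding their siderophores, was at 6.67, 6.49 and 6.65 in control, 4.64, 5.52 and 5.35 in QDBS and 5.24, 5.49 and 6.04 in YDBS. Ngp, the neutrophilic granule protein, a cystatin-like protein of the granules, was at 8.35, 7.76 and 8.24 in control, 4.95, 7.29 and 6.52 in QDBS and 5.9, 6.6 and 6.2 in YDBS. For each of these 3 genes all model arrays lay below all control arrays, the model groups overlapped, and QDBS replicate 1 was the lowest of the 9 arrays. Ltf, the iron-binding lactoferrin, stayed between 3.12 and 3.41 on all arrays, below the median signal of each, so little can be said of its level. Camp, Ngp and Ltf lie on chromosome 8, with 11 genes between Camp and Ngp and 27 between Ngp and Ltf.

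The azurophil genes varied little. Their mean signals lay near the middle of all genes, at percentiles of 48.3 for Mpo and 55.3 for Elane. Whether so low a signal limited their spread was not tested. Mpo, whose enzyme makes hypochlorous acid, ranged from 4.4 to 4.7 in control, 4.06 to 4.36 in QDBS and 4.27 to 4.53 in YDBS. Elane, the serine protease neutrophil elastase, ranged from 4.74 to 4.99 in control, 4.25 to 4.74 in QDBS and 4.66 to 4.97 in YDBS. For Mpo the QDBS arrays lay below control, and for Elane and for Mpo in YDBS the groups overlapped.

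**Figure D1:**
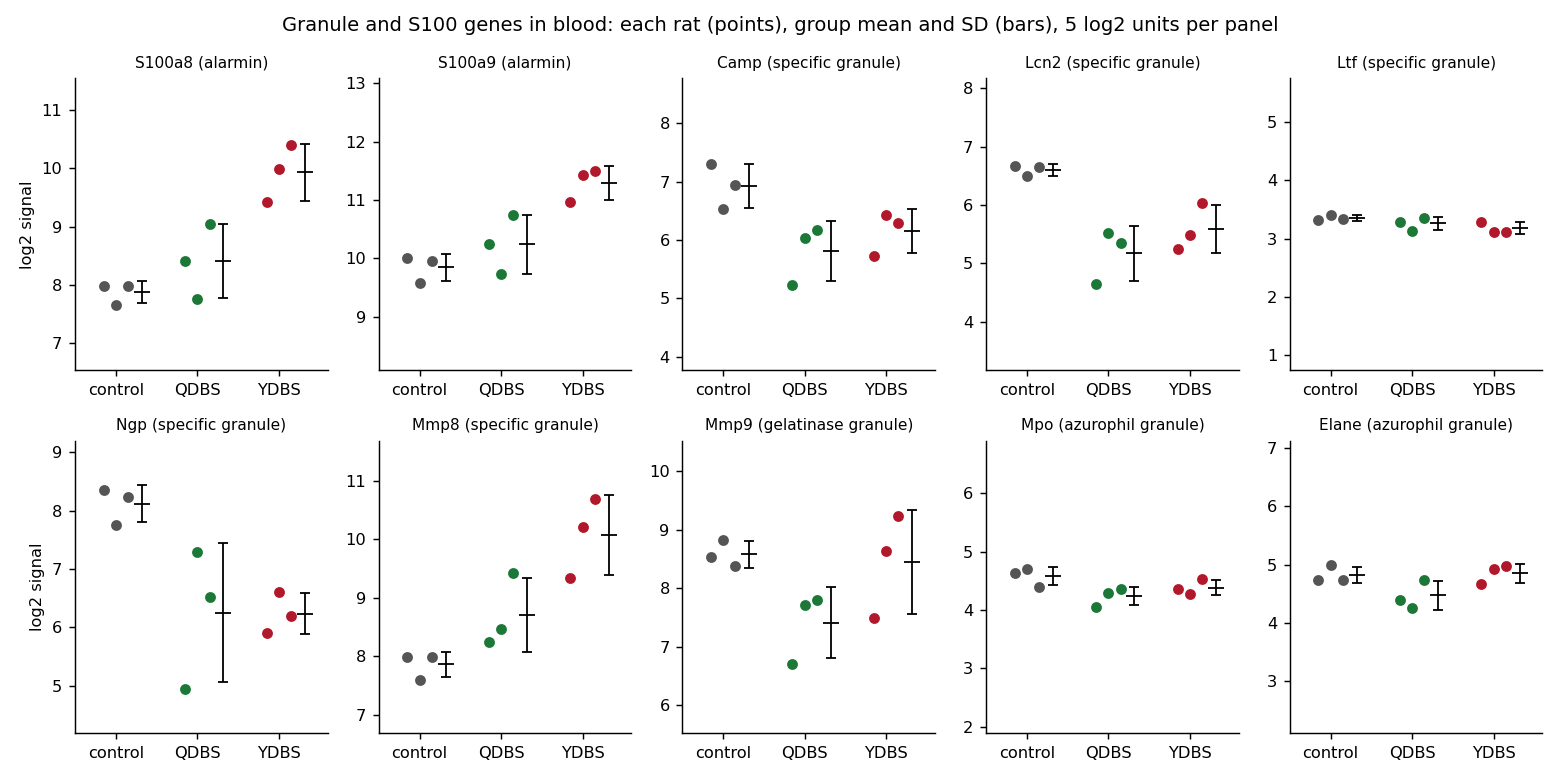
Log2 signal (vertical axis, an equal span in every panel) of the 10 genes in each of the 3 rats of the control, QDBS and YDBS groups, with points for rats and a bar beside them for the group mean and SD. S100a8, S100a9 and Mmp8 were highest in YDBS, whereas Camp, Lcn2 and Ngp were lower in both models than in control.

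QDBS against control asked how swimming with occlusion changed these genes. Of the 10 genes, limma called 4 down-regulated and 0 up-regulated (1 was higher at an unadjusted p under 0.05, Mmp8, and the methods' t-test called 0 higher), against 1.36% of all genes called lower and 9.62% called higher. Ngp fell most, with a FC of -3.64 (log2 FC -1.86, 95% interval -2.88 to -0.85, 3 rats a group, FDR = 0.00863), followed by Lcn2 with a FC of -2.70 (log2 FC -1.43, standard error 0.24, FDR = 0.001), Mmp9 with a FC of -2.26 (log2 FC -1.17, standard error 0.40, FDR = 0.0348) and Camp with a FC of -2.17 (log2 FC -1.12, standard error 0.28, FDR = 0.0088). S100a8 had a FC of 1.44 (FDR = 0.176), S100a9 of 1.32 (FDR = 0.193) and Mmp8 of 1.81 (FDR = 0.0684), and none of these was called. Mpo (log2 FC -0.34, FDR = 0.0584), Elane (-0.36, FDR = 0.0772) and Ltf (-0.10, FDR = 0.475) were not called either. The median log2 FC of the 10 genes was -0.35, and 5 of them had all QDBS arrays below control and 1 had all above, against 31.3% and 22.8% of all genes.

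The calls for Mmp9 and Camp in QDBS ended when any of several arrays was left out. Array weights also ended the call of Mmp9 (FDR = 0.0644). Mmp9 was no longer called without QDBS replicate 1 (FDR = 0.132), QDBS replicate 2 (FDR = 0.0525), control replicate 1 (FDR = 0.0655), control replicate 2 (FDR = 0.0948) or control replicate 3 (FDR = 0.0566). Camp was no longer called without QDBS replicate 1 (log2 FC -0.83) or control replicate 1 (-0.94), and without QDBS replicate 1 the log2 FC of Ngp was -1.21 and its call stood. Under the methods' t-test the calls of Camp (FDR = 0.107), Mmp9 (FDR = 0.102) and Ngp (FDR = 0.139) ended, and with arrays centred on their medians those of Camp (log2 FC -0.95) and Mmp9 (FDR = 0.0765) ended while Mmp8 was called higher (log2 FC 1.02, FDR = 0.0468). Lcn2 kept its call in QDBS without any 1 array.

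YDBS against control asked the same of hydrocortisone and epinephrine with occlusion. Here 3 of the 10 genes were up-regulated and 2 down-regulated, against 10.4% of all genes called higher and 0.919% called lower. Mmp8 rose with a FC of 4.68 (log2 FC 2.23, 95% interval 1.46 to 2.99, 3 rats a group, FDR = 0.000585), S100a8 with a FC of 4.15 (log2 FC 2.05, standard error 0.31, FDR = 0.000419) and S100a9 with a FC of 2.73 (log2 FC 1.45, standard error 0.24, FDR = 0.000839). Ngp fell with a FC of -3.69 (log2 FC -1.88, standard error 0.46, FDR = 0.0076) and Lcn2 with a FC of -2.02 (log2 FC -1.01, standard error 0.24, FDR = 0.00675). Camp had a log2 FC of -0.78 (FDR = 0.0389), short of the threshold on size. Mmp9 had a log2 FC of -0.13 (FDR = 0.797), Ltf of -0.18 (FDR = 0.207), Mpo of -0.20 (FDR = 0.237) and Elane of 0.02 (FDR = 0.898). The median of the 10 genes was -0.15, and 4 of them had all YDBS arrays below control and 3 all above, against 33.3% and 23.4% of all genes.

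Lcn2 lay at the edge of the size threshold in YDBS. It was no longer called without YDBS replicate 1 (log2 FC -0.84), YDBS replicate 2 (-0.96), control replicate 1 (-0.98) or control replicate 3 (-0.99), with arrays centred on their medians (-0.81), or by the methods' t-test (FDR = 0.0586). Camp was called lower with quantile normalization (-1.21) or cyclic loess (-1.12). The rises of S100a8, S100a9 and Mmp8 and the fall of Ngp kept their calls in YDBS without any 1 array.

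QDBS against YDBS put the models side by side, and limma and the methods' t-test each called 0 of the 10 genes, against 0.33% of all genes called lower in QDBS and 0.0% called higher. S100a8 had a FC of -2.88 in QDBS relative to YDBS (log2 FC -1.52, 95% interval -2.20 to -0.85, FDR = 0.0621), Mmp8 of -2.59 (log2 FC -1.37, FDR = 0.123) and S100a9 of -2.07 (log2 FC -1.05, FDR = 0.0963). Mmp9 had a log2 FC of -1.05 (FDR = 0.342) and Elane of -0.38 (FDR = 0.37). At an unadjusted p under 0.05, 5 of the 10 genes were lower in QDBS and 0 higher, against 6.56% and 3.97% of all genes. The arrays of the models did not overlap for 2 genes, S100a8 and S100a9, both lower in QDBS, against 8.65% of all genes lower and 9.79% higher without overlap. Ngp had a log2 FC of 0.02 with a 95% interval from -0.99 to 1.03, and the intervals of Camp and Lcn2 reached from -0.94 to 0.28 and from -0.95 to 0.11, so differences of nearly 1 log2 unit were not resolved for these genes. S100a8 was called lower in QDBS without QDBS replicate 3 (FDR = 0.0244), YDBS replicate 1 (FDR = 0.0371) or control replicate 2 (FDR = 0.0457), S100a9 without QDBS replicate 3 (FDR = 0.0348) and Mmp8 without YDBS replicate 1 (FDR = 0.0412).

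**Figure D2:**
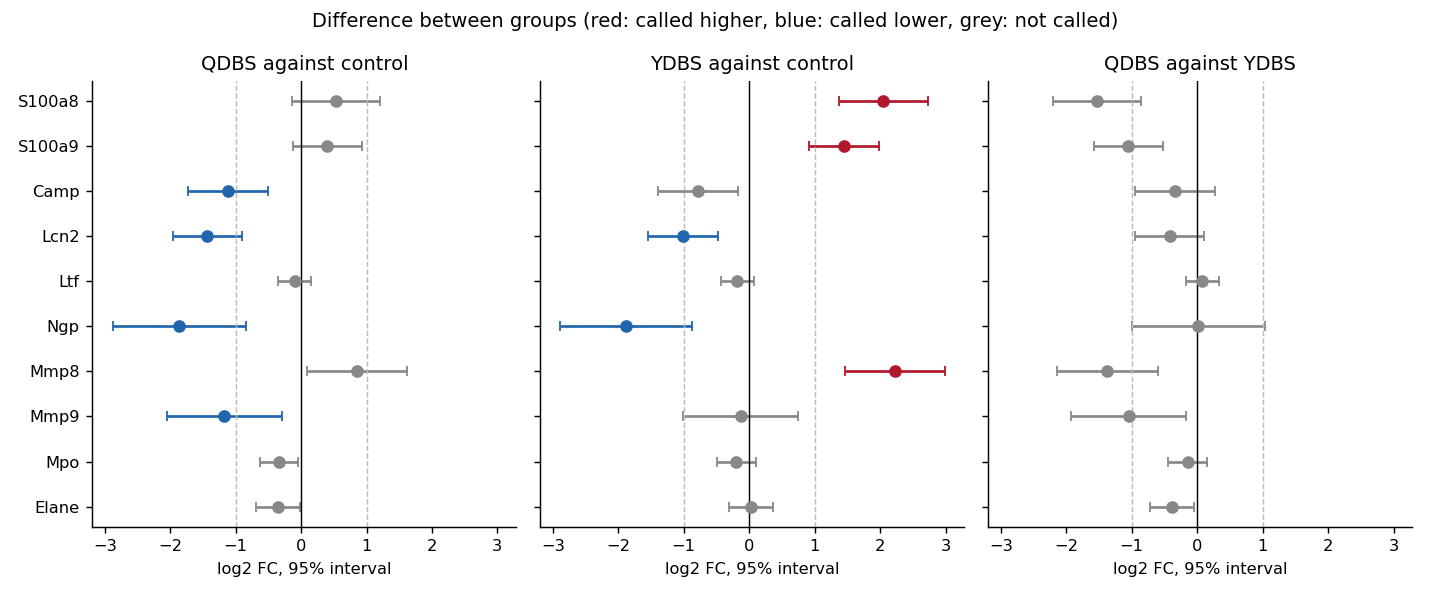
Log2 FC (horizontal axis, log2 units) of the 10 genes in the 3 comparisons, one panel each, with 95% intervals from limma; red points are called higher, blue points called lower and grey points not called, and dashed lines mark the size threshold. The called rises in YDBS were S100a8, S100a9 and Mmp8, the called falls were Ngp and Lcn2 in both models and Camp and Mmp9 in QDBS, and no gene was called between the models.

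Profiles over the 9 arrays were also compared, by the root mean square (RMS) difference of log2 signals after each gene was centred on its own mean, as a description without a test. Ltf, Mpo and Elane, which varied little, lay 0.177 to 0.242 log2 units from each other. Among the other members the closest pairs were Camp and Lcn2 (0.262), S100a8 and Mmp8 (0.264) and S100a8 and S100a9 (0.289). Among 18020 genes, the nearest to S100a8 were Nlrp12, an inhibitory Nod-like receptor of myeloid cells (0.142), and Oas1k (0.189). S100a9 lay nearest to Il1rap, the shared co-receptor of the interleukin-1 family (0.151), and Sqor, a mitochondrial sulfide oxidase (0.156). Mmp8 was nearest to Oas1k (0.217) and Cxcr2, the chemokine receptor that draws neutrophils out of the marrow (0.224). Camp was nearest to Mir344-1 (0.16) and RT1-M10-1 (0.217), Lcn2 to Cd177, a neutrophil surface protein (0.231), and Camp, Ngp to Ube2c, a ubiquitin-conjugating enzyme of mitosis (0.525), and Lcn2 (0.555), and Mmp9 to Crispld2 (0.374) and Olr1191 (0.41). Mir344-1 had mean signals of 3.14 in control, 2.37 in QDBS and 2.49 in YDBS, below the array medians. RT1-M10-1 (4.33, 3.58 and 3.79) and Olr1191 (4.28, 3.58 and 4.08) lay near or below those medians, so little can be read from these neighbours. The neighbours of Ltf, Mpo and Elane were Pcdhb9 and Fabp6, Sbsn and Ppp1r17, and Gsr and Ugt8, at 0.050 to 0.092, but these 3 genes themselves varied by only 0.104, 0.185 and 0.235 around their means.

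The windows before the start sites of 5 of the called genes are shown because they fall on both sides, S100a9 and Mmp8 higher in YDBS and Camp, Lcn2 and Ngp lower. Sequences are from RefSeq on build GRCr8, which held windows for 7 of the 10 genes, and are the 250 bases before the start site that its promoter table uses, 5′ to 3′ on the strand of the gene. For Lcn2, Mmp8 and Mpo that start lies inside the outermost bounds of the gene, so their windows overlap the annotated gene in part and, for Mpo, wholly. The positions are chr2:178490623-178490872 (minus strand) for S100a9, chr8:13008640-13008889 (plus) for Mmp8, chr8:118721999-118722248 (minus) for Camp, chr3:36081781-36082030 (minus) for Lcn2 and chr8:119272355-119272604 (plus) for Ngp. Capitals mark matches, on either strand, to TTGCNNAA, a core of the sites of C/EBP factors that drive granule genes, to AGGAAG, a core of ETS factors such as PU.1, and to TATAAA.
S100a9: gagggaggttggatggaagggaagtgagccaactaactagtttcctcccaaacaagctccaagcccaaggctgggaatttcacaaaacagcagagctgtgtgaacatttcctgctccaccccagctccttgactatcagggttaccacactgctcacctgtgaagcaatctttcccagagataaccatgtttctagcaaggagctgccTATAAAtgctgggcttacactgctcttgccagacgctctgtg
Mmp8: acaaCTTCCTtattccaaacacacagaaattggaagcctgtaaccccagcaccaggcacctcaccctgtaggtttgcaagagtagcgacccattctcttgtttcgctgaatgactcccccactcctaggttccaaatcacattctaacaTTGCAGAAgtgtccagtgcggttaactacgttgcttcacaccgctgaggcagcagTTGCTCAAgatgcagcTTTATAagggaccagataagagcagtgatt
Camp: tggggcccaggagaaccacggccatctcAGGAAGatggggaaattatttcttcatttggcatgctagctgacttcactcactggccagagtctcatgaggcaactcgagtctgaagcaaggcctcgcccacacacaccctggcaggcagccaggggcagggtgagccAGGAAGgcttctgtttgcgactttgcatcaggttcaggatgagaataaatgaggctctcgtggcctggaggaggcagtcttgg
Lcn2: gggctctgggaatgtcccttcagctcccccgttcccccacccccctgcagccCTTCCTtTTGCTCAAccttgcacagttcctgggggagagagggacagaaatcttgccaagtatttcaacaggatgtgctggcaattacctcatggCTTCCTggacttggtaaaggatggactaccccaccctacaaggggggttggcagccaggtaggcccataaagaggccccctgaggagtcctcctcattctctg
Ngp: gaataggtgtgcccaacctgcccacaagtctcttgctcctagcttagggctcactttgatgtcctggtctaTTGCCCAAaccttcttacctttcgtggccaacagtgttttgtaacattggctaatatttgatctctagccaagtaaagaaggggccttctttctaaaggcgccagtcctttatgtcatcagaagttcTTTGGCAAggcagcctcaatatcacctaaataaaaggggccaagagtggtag

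The C/EBP core was found in the windows of Mmp8 (first bases at -101 and -46), Ngp (-179 and -52) and Lcn2 (-191), and in 9.22% of 33469 windows of rat genes. The ETS core was found in Camp (-222 and -83), Lcn2 (-198 and -103), Mmp8 (-246), Ltf (-150 and -146, overlapping) and Mpo (-136 and -43), and in 29.5% of windows. TATAAA was found in S100a9 (-42) and Mmp8 (-30), and in 12.9% of windows. Of the other 2 of 5 motifs searched, a motif of NF-kB was found in Mpo (-79) and in 4.36% of windows, and the palindromic glucocorticoid response element in none of the 7 and in 0.373% of windows. Matches are descriptions of letters. The C/EBP core stood before Mmp8, which rose in YDBS, and before Lcn2 and Ngp, which fell, and it was not found in the windows of S100a9 and Camp.

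**Figure D3:**
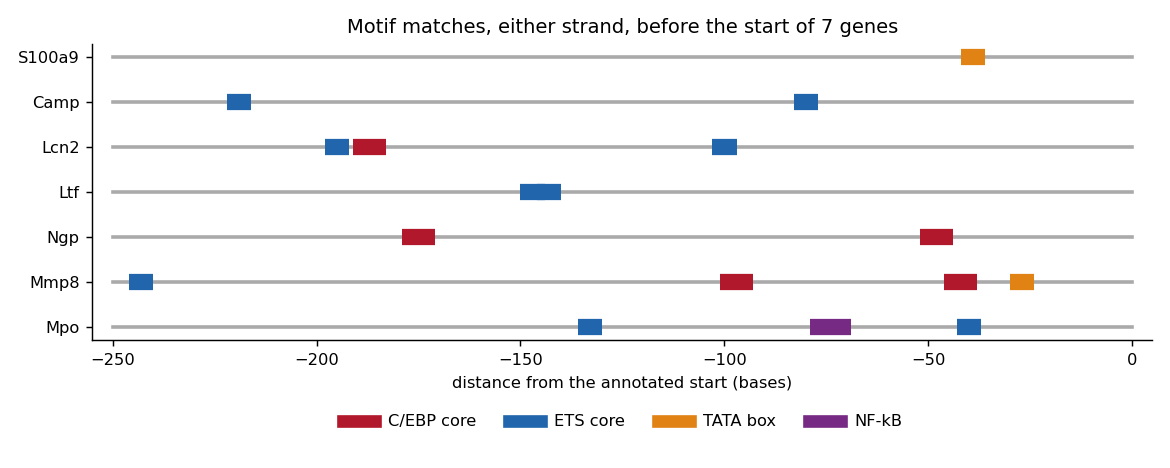
Positions of motif matches (horizontal axis, bases from the annotated start) in the 250 bases before the start sites of 7 genes, on either strand, one row for each gene and one marker for each motif. The C/EBP core was matched in Lcn2, Ngp and Mmp8.

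Other genes of the same biology were set beside the members as lists written from textbook knowledge with earlier results of these data known, so each is a description by counts and medians. Of 12 other azurophil granule genes, 0 were called in QDBS and 1 rose in YDBS. That gene was Ctsc, the cathepsin C that activates the serine proteases of the granules (log2 FC 1.37, FDR = 0.000221). Lyz2, the lysozyme of myeloid cells, had a log2 FC of 0.35 in QDBS (FDR = 0.0223) and Srgn, the serglycin that packs the granules, of 0.24 (FDR = 0.135). Of 13 other specific and gelatinase granule genes, 2 rose in QDBS and 5 rose and 1 fell in YDBS. Cybb, the membrane subunit of the oxidase, rose in QDBS (log2 FC 1.72) and YDBS (1.55), Chi3l1, a chitinase-like protein of the specific granules, in YDBS (1.39, FDR = 3.17e-05), Adam8, a metalloprotease, in YDBS (1.35), Slpi, a protease inhibitor, in YDBS (1.73), and Arg1, an arginase, fell in YDBS (-1.08, FDR = 0.000536), a call that ended without control replicate 1 (log2 FC -0.93). Ceacam1, an adhesion receptor of the granules, rose in QDBS (log2 FC 1.16, FDR = 0.0308) but not without QDBS replicate 1 (FDR = 0.0771), 2 (FDR = 0.0569) or 3 (FDR = 0.0875) or control replicate 2 (log2 FC 0.57). In YDBS it rose by a log2 FC of 1.58 (FDR = 0.00714), a call that ended without control replicate 2 (0.99).

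Of 13 other S100 genes, S100a1, which binds calcium in muscle and other tissues, was the single call, which fell by a log2 FC of 2.27 under QDBS and of 2.30 under YDBS, opposite in sign to S100a8 and S100a9. Among 10 receptors of the released proteins, 0 were called in QDBS and 1 in YDBS, where Ly96, the MD-2 partner of Toll-like receptor 4, rose (log2 FC 1.34, FDR = 0.00112).

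The inhibitors of granule enzymes moved in both directions. Serpinb1a, the rat gene named for serpin B1, whose human counterpart inhibits elastase, had log2 signals of 5.05, 4.41 and 5.13 in control, 6.27, 6.58 and 6.58 in QDBS and 7.6, 7.78 and 8.93 in YDBS, with no overlap between any of the groups. Between the models its log2 FC was -1.63 (FDR = 0.0553), which was not called. It rose with a FC of 3.05 in QDBS (log2 FC 1.61, standard error 0.31, FDR = 0.0023) and of 9.44 in YDBS (log2 FC 3.24, standard error 0.31, FDR = 2.28e-05). Slpi, which belongs to this list as well, rose in YDBS with a FC of 3.32 (FDR = 0.00259). Serpina1, the plasma inhibitor of elastase made mainly in liver, fell in QDBS (log2 FC -1.21) and YDBS (-1.20), and Timp3, a matrix-bound inhibitor of metalloproteases, fell in QDBS (-1.47). Thus 1 of 9 inhibitors rose and 2 fell in QDBS, and 2 rose and 1 fell in YDBS.

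Of 8 transcription factors of granulocyte development, 0 were called in QDBS and 1 rose in YDBS, Stat3, which relays signals of the G-CSF receptor (log2 FC 1.07, FDR = 0.00326), a call that ended without control replicate 2 (log2 FC 0.77). In QDBS, Stat3 was 0.93 higher (log2 FC, FDR = 0.00758) and was called without QDBS replicate 1 (1.02), control replicate 1 (1.06) or control replicate 3 (1.09). Of the 8 factors, 5 had a negative log2 FC in each model. Cebpa had a log2 FC of -0.86 in QDBS (FDR = 0.00139) and -0.59 in YDBS (FDR = 0.0107). Cebpb was at -0.92 (FDR = 0.00209) and -0.50 (FDR = 0.038), and both genes fell short of the threshold on size.

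Most, but not all, markers of mature neutrophils moved with the members that rose. Of 11 neutrophil surface receptors, 7 were called higher and 0 lower in YDBS and 1 higher and 0 lower in QDBS. Their median log2 FCs were 1.05 and 0.44, and 9 had a positive log2 FC in YDBS and 8 in QDBS. Cd177 (log2 FC -0.95 in QDBS and -0.63 in YDBS) and Cxcr1 (-0.51 and -0.38) went the other way. So did Alpl in QDBS (-0.61, FDR = 0.167). All model arrays of Cd177 and Cxcr1 lay below control, short of the threshold on size. The log2 of the summed signal of all 11 receptors was 11.3 to 11.44 in control, 11.54 to 12.05 in QDBS and 12.42 to 12.84 in YDBS. That was the same order of groups as for S100a8, S100a9 and Mmp8. Ccr1, a chemokine receptor, rose in both (log2 FC 1.74 in QDBS and 3.21 in YDBS), and Cxcr2 (2.09), the decoy receptor Il1r2 (2.42) and the formyl peptide receptor Fpr1 (2.56) rose in YDBS. In QDBS, Cxcr2 had a log2 FC of 0.82 (FDR = 0.0148), and this value was chosen after it was seen. The part of neutrophil number in the results of the 10 genes was not tested. Of 6 oxidase and extracellular trap genes, 1 rose in QDBS and 2 in YDBS, Cybb and Ncf4 (log2 FC 1.52).

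Markers of immature and other cells gave the following. Of 9 marrow progenitor and cell division genes, 2 rose in each model, Mki67 (log2 FC 1.56 in QDBS and 2.03 in YDBS) and Rrm2 (1.29 and 1.13), and the log2 summed signal was 7.11 to 7.15 in control, 7.41 to 7.95 in QDBS and 7.58 to 7.99 in YDBS. The progenitor markers Kit (log2 FC -0.40 in QDBS and -0.56 in YDBS) and Cd34 (-0.55 and -0.44) went the other way. All model arrays of Kit and Cd34 lay below control, short of the threshold on size. Of the cell division genes, Cdk1 had a log2 FC of -0.31 in each model and Top2a of 0.004 in QDBS and 0.078 in YDBS. Over the 9 genes, 6 had a positive log2 FC in QDBS and 5 in YDBS. The call of Rrm2 in QDBS ended without QDBS replicate 2 (FDR = 0.0747), QDBS replicate 3 (FDR = 0.0676) or control replicate 2 (FDR = 0.0502), and in YDBS without YDBS replicate 2 (FDR = 0.0589), YDBS replicate 3 (FDR = 0.0966) or control replicate 1 (FDR = 0.0527), 2 (FDR = 0.0745) or 3 (FDR = 0.0612). Of 7 monocyte markers, 1 rose in each model, Ccr2 (log2 FC 2.57 and 3.01), with summed signals of 10.19 to 10.66, 10.63 to 11 and 10.68 to 10.86. Most of the 7 went the other way, with 5 negative log2 FCs in QDBS (median -0.03) and 4 in YDBS (median -0.15). Of 8 eosinophil, basophil and mast cell markers 0 were called. Platelet markers fell in 5 of 6 cases in QDBS and 1 of 6 in YDBS, erythroid markers in 3 and 0 of 6, and hepatocyte markers in 5 of 6 in each model, where their summed log2 signal was 6.05 to 6.2 against 8.27 to 8.48 in control. Of 7 T cell markers, 3 rose in QDBS and 1 in YDBS, and of 5 B cell markers, 3 and 2. The part of any of these cell types in the results of the 10 genes was not tested.

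**Figure D4:**
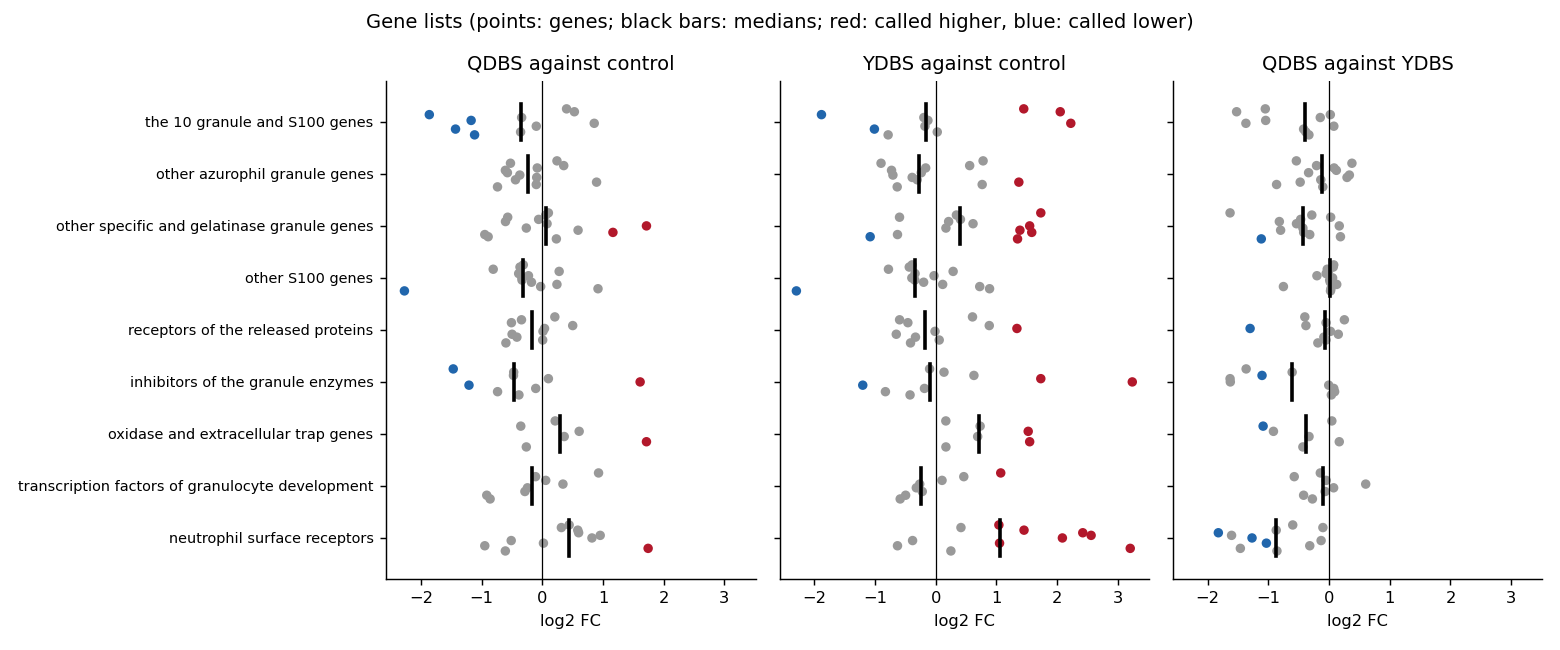
Log2 FC (horizontal axis) of each gene of the lists, one row for each list and one panel for each of the 3 comparisons, with the median of each list marked. Neutrophil surface receptors had a median of 1.05 in YDBS and 0.44 in QDBS, while the 10 granule and S100 genes spread to both sides of 0.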

How the data were processed

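Blood RNA of 9 rats, 1 Affymetrix Rat Gene 2.0 ST array each, was analysed. The authors deposited log2 values from Affymetrix Expression Console 1.1, computed by Robust Multi-chip Average (background correction, quantile normalization, probe summary), and these were used unchanged. Precision is limited by the number of arrays. Of 30347 transcript clusters, 18511 carried a single symbol; the brightest per gene over all arrays gave 18166 genes, and 291 genes had several clusters. Neither probe-level files nor the genome build of the array were used here, so no coordinates of the array are given.

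Limma 3.58.1 in R 4.3.3 was fitted once to all arrays (a mean for each of 3 groups, which leaves 6 residual degrees of freedom), and FDR is the Benjamini-Hochberg adjusted p over all genes. The script was tested on simulated data. Labels name the rats only by group and number; p-values measure the spread between these rats.

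The 10 members and all lists were chosen with earlier results of these data known. The text names all members, up to 4 called genes of each list in each comparison by smallest FDR, or the brightest where none was called, and the 2 nearest profiles of each member. Values of Cxcr2 in QDBS, Csf3r and Ceacam1 in YDBS and Serpinb1a between the models lie outside this rule and were chosen after they were seen. The same holds for the values of Bpi, Defa7, Cebpa, Cebpb, Ager, Cd177, Cxcr1, Alpl, Kit, Cd34, Cdk1 and Top2a against control. Of the genes the rule gives, values are printed for the lists of granule biology and counts for most cell type markers, and that selection was made after the values were seen.

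Alternatives were array centring on the median or the 75th percentile, over all clusters or over the tested genes; cyclic loess; quantile normalization; a filter that removed the dimmest 40% of genes; the mean of clusters; a fit of only the groups compared; a trended, robust variance; array weights; the replicate number as a block; the methods' t-test; no minimum fold change; and leaving out each array. Which features set the percentile was not specified in advance. It was first taken over the tested genes, and after those results were seen the version over all clusters was taken as the planned one and the first was kept as an added alternative.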

Additional observations from a re-analysis of the deposited data

Results flagged for a closer look

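No member was called between the models, but 7 genes of the lists set beside them were lower in QDBS than in YDBS by the test of that difference (limma, FDR under 0.05 and absolute log2 FC over 1, n = 3 rats per group). The receptors Il1r2 (log2 FC -1.83, FDR = 0.0327), Cxcr2 (-1.27, FDR = 0.0449) and Csf3r (-1.03, FDR = 0.029), the receptor of G-CSF, were among them. So were the metalloprotease Adam8 (-1.12, FDR = 0.036), the MD-2 gene Ly96 (-1.30, FDR = 0.0451), the metalloprotease inhibitor Timp1 (-1.11, FDR = 0.0425) and Padi4 (-1.09, FDR = 0.036), the enzyme that citrullinates histones in extracellular traps. Arrays of the models did not overlap for any of the 7, against 8.65% of all genes lower in QDBS without overlap and 9.79% higher. The 7 were picked by a test on these same arrays, so this separation adds no support to their calls.

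Every one of these 7 calls ended without QDBS replicate 1 or 2, YDBS replicate 2 or 3 or control replicate 1 or 3, with FDRs from 0.0649 to 0.253, and that of Timp1 also without QDBS replicate 3 (FDR = 0.0644). The methods' t-test called none of the genes tested in this comparison, and fitted to only the groups compared limma called 3 genes and none of these 7. Quantile normalization ended the calls of Adam8 (FDR = 0.0503), Ly96 (FDR = 0.063), Timp1 (FDR = 0.0595), Cxcr2 (FDR = 0.0901) and Csf3r (FDR = 0.063). A trended, robust variance ended that of Cxcr2 (FDR = 0.0545), the replicate block those of Ly96 (FDR = 0.0736) and Padi4 (FDR = 0.0565), and cyclic loess (log2 FC -0.97) and array weights (-0.96) took Csf3r under the size threshold. The flags come from few arrays, and groups of 3 were not tested for single outlying samples.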

How the results depend on the processing

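Over 22 other settings, 602 of 657 values of the members kept direction and side of the threshold, 20 lost a call, 12 gained one and 23 changed sign. The count of members called higher in YDBS was 3 in every setting run. With arrays centred on their medians, members called in QDBS went from 0 to 1 higher and from 4 to 2 lower, and those called lower in YDBS from 2 to 1, against 12.1% of all genes higher and 0.809% lower in QDBS and 13.5% and 0.374% in YDBS under that setting. That count was also 1 with centring on the median over the tested genes, and the methods' t-test gave 1 lower in QDBS and 1 lower in YDBS. Between the models, the count of members lower in QDBS went from 0 to 1 with array weights, with the dimmest 40% of genes left out and with the replicate block, S100a8 each time (FDR = 0.0262, 0.0411 and 0.0479). With 1 array left out, the counts ranged from 2 to 4 lower in QDBS, from 1 to 2 lower in YDBS and from 0 to 2 lower in QDBS against YDBS.

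Small values changed sign. The log2 FC of Ltf in QDBS was 0.064 with median centring, 0.21 with cyclic loess and 0.13 with quantile normalization, and in YDBS it was 0.024, 0.15 and 0.068. In YDBS, Mpo was at 0.0063 with median centring and 0.022 with cyclic loess, Mmp9 at 0.073 with median centring, at 0.0027 with array weights and between -0.52 and 0.35 with 1 array left out, and Elane at -0.18 with centring on the 75th percentile, -0.36 with that over the tested genes, -0.062 with quantile normalization and between -0.035 and 0.12 with 1 array left out. Ngp in QDBS against YDBS was at -0.018 with median centring, -0.11 with array weights and between -0.50 and 0.67 with 1 array left out. In QDBS, Lyz2 was at -0.017 and Srgn at -0.13 with centring on the 75th percentile over the tested genes. The cause of these changes was not tested, beyond the shift that a centring adds to every gene.

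Among the genes named beside the members, calls in YDBS ended with cyclic loess and quantile normalization for Ctsc (log2 FC 0.99 and 0.91), Adam8 (0.97 and 0.88), Arg1 (-0.75 and -0.87), Stat3 (0.72 and 0.65) and Csf3r (0.84 and 0.93), and with cyclic loess for Serpina1 in QDBS (-0.91) and YDBS (-0.88). By the methods' t-test they ended in QDBS for Ceacam1 (FDR = 0.218), Ccr1 (FDR = 0.0897), Mki67 (FDR = 0.063) and Rrm2 (FDR = 0.081), and in YDBS for Slpi (FDR = 0.0929), Stat3 (FDR = 0.0827), Rrm2 (FDR = 0.154) and Ceacam1 (FDR = 0.13).

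The scaling also sets the background. The share of all calls that were higher was 87.6% in QDBS and 91.9% in YDBS, 67.0% and 72.0% with centring on the 75th percentile, 74.5% and 75.1% with quantile normalization, 79.4% and 85.8% with cyclic loess, 93.7% and 97.3% with median centring, 91.0% and 94.6% with that over the tested genes, and 41.1% and 39.8% with centring on the 75th percentile over the tested genes. Between the models 60 genes were called lower in QDBS, and between 0 and 102 with 1 array left out.

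Replicate numbers do not pair rats in the labels, and arrays of 1 number deviated together no more than others (correlations of -0.17 to 0.196 against -0.13 to 0.217). With the replicate block, S100a8 gained a call between the models (FDR = 0.0479), and the block changed no other member's call. Ly96 (FDR = 0.0736) and Padi4 (FDR = 0.0565) lost their calls between the models.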
